A study of Mus musculus with 36 samples.

Results

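The genes described here are 32 genes for the digestive enzymes and zymogens of pancreatic acinar cells, with the cofactors, inhibitors and granule proteins that are stored beside them: Amy1, Amy2a5, Cel, Cela1, Cela2a, Cela3a, Cela3b, Clps, Cpa1, Cpb1, Ctrb1, Ctrc, Ctrl, Cuzd1, Dnase1, Gp2, Klk1, Pla2g1b, Pnlip, Pnliprp1, Pnliprp2, Prss1, Prss2, Prss3, Rnase1, Serpini2, Spink1, Sycn, Try4, Try5, Try10 and Zg16. They were chosen by name and function. All 32 were among the 22384 genes of the annotation that were examined. The data were lists of ChIP-Seq peaks for K4me3 (H3K4me3, a mark of active promoters) and K27me3 (H3K27me3, the mark that EZH2 deposits) from whole pancreas of 6 mice, 3 in each of 2 genotypes. Control mice are labelled wild type, and the study's controls included mice that carry Mist1creERT alone. EZH2ΔSET mice carried Mist1creERT/+ and lost the catalytic SET domain of Ezh2. All mice received tamoxifen by oral gavage, were 2 to 4 months old and were examined 22 days after the initial dose. Mist1creERT acts in acinar cells, while the tissue was the whole pancreas, so that peaks from duct, islet, immune and stromal cells stand in the same lists. The lists give positions only, and read depth is unknown.

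Acinar cells make, store and secrete more protein than almost any other cell of the body, and most of that protein is digestive enzyme. The proteases are made as inactive zymogens, packed into granules with trypsin inhibitors, and activated by trypsin in the gut lumen. Their promoters are bound by the PTF1 complex, in which PTF1A and a partner bind an E-box and RBPJL binds a TGGGAA element, and by NR5A2. K4me3 usually forms a narrow peak at a start site, and a peak that runs far into the gene body is known from genes that are strongly transcribed in the cell type that they define.

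The promoters below are shown because the results turn on these genes: in the trypsinogen cluster, promoters alike in sequence differed in K4me3, Cela3a was the marked gene whose covered length in the TSS window spread most between mice, and Cpb1 had the widest peak. Each line gives the 250 bases before the RefSeq start, 5′ to 3′ along the gene, on build GRCm38.p6. Capitals mark the TATA box motif TATAAA, the E-box CACCTG, and the RBPJL element TGGGAA, each searched for on either strand.
Try4 promoter, chr6:41302022-41302271, plus strand: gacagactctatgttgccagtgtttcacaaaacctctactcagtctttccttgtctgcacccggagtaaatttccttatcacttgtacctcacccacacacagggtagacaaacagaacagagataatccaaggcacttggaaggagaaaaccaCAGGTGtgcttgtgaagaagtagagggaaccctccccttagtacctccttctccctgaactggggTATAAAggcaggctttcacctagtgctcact
Prss1 promoter, chr6:41458680-41458929, plus strand: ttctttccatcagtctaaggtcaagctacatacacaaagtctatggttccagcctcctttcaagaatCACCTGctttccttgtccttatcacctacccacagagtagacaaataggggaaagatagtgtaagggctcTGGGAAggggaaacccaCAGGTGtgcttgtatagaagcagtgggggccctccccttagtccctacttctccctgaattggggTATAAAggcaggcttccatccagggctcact
Prss2 promoter, chr6:41521526-41521775, plus strand: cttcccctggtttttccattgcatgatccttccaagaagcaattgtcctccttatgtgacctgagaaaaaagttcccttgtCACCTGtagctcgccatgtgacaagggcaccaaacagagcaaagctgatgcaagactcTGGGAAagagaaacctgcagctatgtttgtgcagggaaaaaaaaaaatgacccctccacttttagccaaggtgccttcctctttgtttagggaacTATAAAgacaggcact
Prss3 promoter, chr6:41377614-41377863, minus strand: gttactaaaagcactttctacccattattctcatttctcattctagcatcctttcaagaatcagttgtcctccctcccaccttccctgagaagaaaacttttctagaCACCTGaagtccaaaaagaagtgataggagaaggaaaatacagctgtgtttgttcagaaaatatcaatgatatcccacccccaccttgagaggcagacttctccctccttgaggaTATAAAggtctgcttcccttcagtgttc
Cela3a promoter, chr4:137409792-137410041, minus strand: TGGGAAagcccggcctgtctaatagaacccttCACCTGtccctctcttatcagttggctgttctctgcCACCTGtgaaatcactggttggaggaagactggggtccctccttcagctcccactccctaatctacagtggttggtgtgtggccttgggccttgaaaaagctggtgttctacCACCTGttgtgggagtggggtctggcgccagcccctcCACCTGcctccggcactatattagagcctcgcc
Cela3b promoter, chr4:137430521-137430770, minus strand: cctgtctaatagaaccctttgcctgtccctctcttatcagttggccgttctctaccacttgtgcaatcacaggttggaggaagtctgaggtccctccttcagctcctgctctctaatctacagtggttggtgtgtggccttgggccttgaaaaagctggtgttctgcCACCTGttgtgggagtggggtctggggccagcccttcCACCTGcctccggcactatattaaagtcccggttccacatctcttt
Cpb1 promoter, chr3:20275734-20275983, minus strand: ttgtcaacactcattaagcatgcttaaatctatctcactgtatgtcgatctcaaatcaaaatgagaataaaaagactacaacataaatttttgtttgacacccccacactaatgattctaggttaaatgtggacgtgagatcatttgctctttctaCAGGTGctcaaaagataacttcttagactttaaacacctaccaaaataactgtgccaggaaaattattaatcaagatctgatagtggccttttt

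RefSeq promoters were matched for 26 of the 32 genes, all but Clps, Ctrc, Spink1, Try5, Try10 and Zg16. Within the 250 bases before the start and on either strand, CACCTG stood in 14 of 26 (53.8%) against 17.2% of 32851 promoters of the same length. TGGGAA stood in 15 of 26 (57.7%) against 21.6%, and AAGGTCA, the element of NR5A2, in 4 (15.4%) against 4.08%. TATAAA stood in 10 of 26 (38.5%) against 12.4%, and 20 to 40 bases before the start on the coding strand in 7 (26.9%) against 1.99%. The promoters held few CpG dinucleotides, with a median of 2 against 6 for all promoters. Some of the 26 are copies of each other, these shares were not tested, and a match is only a description of the letters. The Cela3a promoter held CACCTG 4 times and the Cela3b promoter 2 times.

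Libraries differed in more than the marks at these genes. The K4me3 lists held 17400 to 25886 peaks, and 13321 to 13860 genes had a K4me3 peak within 3 kb of a TSS, the lowest in both being control mouse 2. Its median K4me3 peak was nevertheless the widest, at 1716 bp against 1372 to 1436 bp in the other mice. Its K27me3 list likewise held the fewest peaks (21420) with the widest median, 7718 bp against 6358 to 7519 bp. Of 8 marker genes of T and B cells, 6 had K4me3 in control mouse 2 (23.4 kb in sum), 1 in EZH2ΔSET mouse 2 (0.501 kb) and 0 in the other 4 mice. Cd4 and Cd8a, which define T cell subsets, had none in any mouse. All 5 acinar markers had K4me3 in every mouse, over 28.7 kb in control mouse 2 and 39.9 to 42.8 kb elsewhere. Islet markers with K4me3 numbered 2 of 12 in control mouse 2 and 4 to 5 elsewhere, duct markers 6 of 9 and 9, and macrophage markers 2 of 6 and 1. Endothelial markers had 5.70 kb in control mouse 2, of which Pecam1, marked in that mouse alone, gave 4.26 kb, against 1.195 to 3.34 kb elsewhere, and stromal markers 2.85 kb against 2.97 to 5.51 kb. Of 4 liver genes, mostly through Ttr, K4me3 covered 2.50, 1.16 and 2.71 kb in control mice and 4.13, 3.60 and 4.79 kb in EZH2ΔSET mice, and the genotypes did not overlap. The part of this in the comparison of genotypes was not tested. Fewer cells of a type and less mark per cell cannot be told apart in whole tissue. The comparisons of genotypes at these genes are therefore also given without control mouse 2.

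K4me3 lay within 3 kb of a TSS of 28 of the 32 digestive enzyme genes in all 6 mice, against 56.5% of all 22384 genes. The trypsinogens Prss1 and Prss3 and the nuclease Dnase1 had none in any mouse, and Cela3a had a peak in 5 of 6. The nearest K4me3 peak was 32.3 to 32.4 kb from a TSS of Dnase1, 41.6 to 57.2 kb from that of Prss1 and 20.3 to 21.7 kb from that of Prss3. Dnase1, which digests DNA and is secreted by several glands, lies in sequence where 99.98% of the 32-base words of its window occur once in the genome, whereas for Prss1 and Prss3 this share was 49.6% and 46.5%. It was 0.367% at Amy2a5, among several near-identical copies of pancreatic amylase, where peaks cannot be told apart between the copies.

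The peaks at these genes were wide and ran into the gene body. Averaged over the 6 mice, the median gene among the 28 had 4.07 kb of K4me3 in the window of 6.001 kb around its main TSS, against 2.33 kb for the 12119 genes with K4me3 at the main TSS in every mouse. The widest peak that reached within 3 kb of the main TSS, measured over its whole width, was 7.40 kb against 2.33 kb, and 26 of the 28 exceeded 4.29 kb, the 90th percentile of all genes. Over the main transcript K4me3 covered 5.99 kb against 1.54 kb, or 84.9% against 7.53% of its length. The transcripts of the 28 were shorter, with a median span of 8.29 kb against 21.4 kb, so these percentages do not compare genes of like length. The 11 with transcripts longer than 10 kb had 7.77 kb of K4me3 over the transcript against 1.69 kb for 8757 genes of that length. Of these 11, 1 exceeded 11.7 kb, the 99th percentile of those genes. At 13 of the 28 genes the mean cover was at least 90% of the transcript, against 3.01% of all genes. Of the 100 widest peaks of a mouse, 7 to 10 touched a digestive enzyme gene in 5 mice and 4 in control mouse 2. These are descriptions of a list chosen by name and were not tested. The 11 transcription factor genes of the acinar lineage described below had a median of 5.38 kb in the TSS window. Wide cover there was thus not particular to the digestive enzyme genes.

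The profile around the start showed the same asymmetry in each mouse. At 5 kb downstream of the TSS, 60.7% of the digestive enzyme genes were under a peak in each of 5 mice and 32.1% in control mouse 2, against 3.34 to 6.09% of all genes with K4me3 (median 5.78%). At 3 kb upstream the shares were 10.7 to 39.3% and 4.74 to 6.63%. At the TSS itself they were 78.6 to 96.4% and 91.5 to 94.1%, which overlap. Peaks reached a median of 0.979 kb upstream and 6.27 kb downstream of the TSS, and 26 of the 28 reached further downstream.

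**Figure D1:**
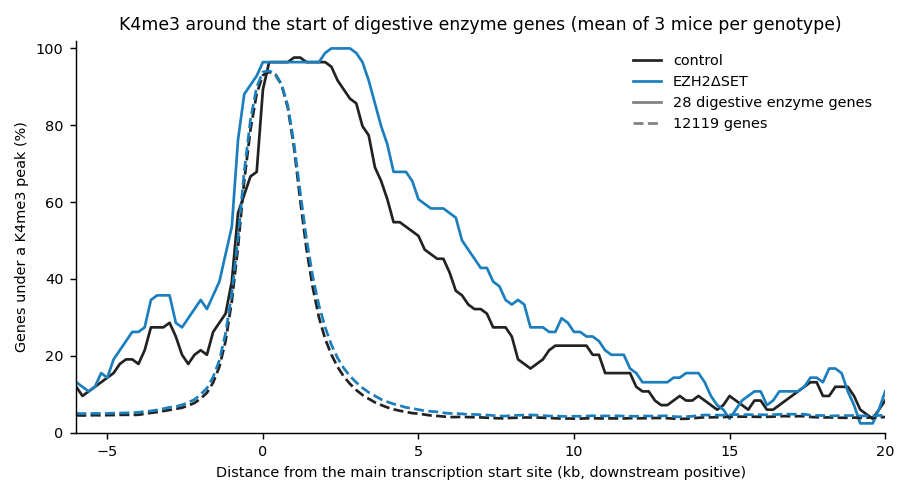
Share of genes under a K4me3 peak (percent, y axis) by distance from the main TSS in kb along the gene (x axis), for the 28 digestive enzyme genes (solid) and the 12119 genes with K4me3 at the main TSS (dashed), each line the mean of 3 mice of a genotype, control mouse 2 included. Over single mice, at the start the sets overlap (78.6 to 96.4% and 91.5 to 94.1%), and 5 kb downstream the enzyme genes stand at 32.1 to 60.7% and all genes at 3.34 to 6.09%.

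By role, widths ranged as follows. The carboxypeptidases, which trim amino acids from the ends of peptides, had mean widest peaks, again within 3 kb of the main TSS, of 7.36 kb (Cpa1) and 19.8 kb (Cpb1). The 6 lipases and their cofactor, which digest dietary fat, all carried K4me3 in 6 mice, with a median of 8.25 kb and a range of 5.86 kb to 12.6 kb. The 3 chymotrypsinogens Ctrb1, Ctrc and Ctrl spanned 5.36 to 8.11 kb, and the 3 elastase genes marked in every mouse 7.43 to 11.8 kb. Among the granule proteins and inhibitors, a group of 6 with Gp2, Zg16, Sycn, Cuzd1, Spink1 and Serpini2, all were marked, at 4.21 to 10.9 kb. The 4 marked trypsinogens ranged from 3.20 kb (Try10) to 10.5 kb (Prss2). In control mouse 2 the widest peak near Prss2, of 4.31 kb, ended upstream of the gene, and the widest peak over the gene itself was 3.08 kb. Amylase, which digests starch, had 4.54 kb at Amy1 and 9.82 kb at Amy2a5, tissue kallikrein Klk1 had 5.44 kb, and the ribonuclease Rnase1 6.59 kb.

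**Figure D2:**
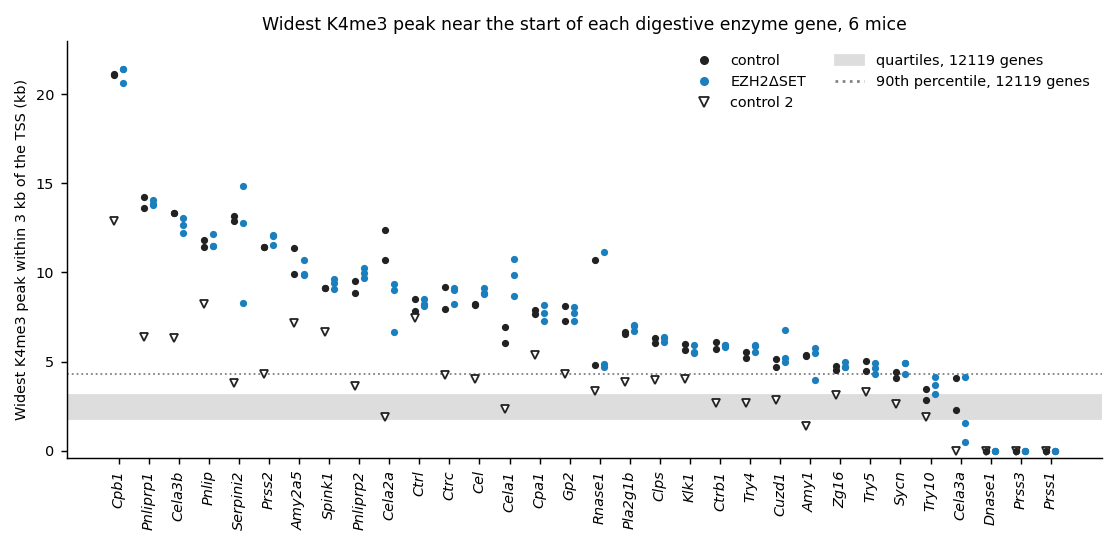
Width in kb of the widest K4me3 peak that reaches within 3 kb of the main TSS (y axis) for the 32 digestive enzyme genes (x axis), whether or not it lies over the gene, 1 point per mouse, coloured by genotype, with open triangles for control mouse 2 and a band and dotted line for the quartiles and 90th percentile of 12119 genes. Cpb1 is the widest at 12.9 to 21.4 kb, and 26 genes have means above the dotted line at 4.29 kb.

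Cpb1, the zymogen of carboxypeptidase B, had a K4me3 peak among the widest of each list. Its width was 21.2, 12.9 and 21.1 kb in the control mice and 21.4, 21.4 and 20.6 kb in the EZH2ΔSET mice. Control mouse 2 was the low value, and the other 5 mice lay within 20.6 to 21.4 kb. By width this peak ranked between 2 and 4 among the 17399 to 25885 peaks of each mouse outside the mitochondrial genome, the low library included. With the smaller peaks in some mice, K4me3 covered 68.4% of the 27.5 kb transcript.

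The widest peak of other genes differed more between mice. This is the width of a single peak, so neighbouring peaks that are listed apart give a lower value. The widest peak at Rnase1 was 10.7, 3.34 and 4.82 kb in control mice and 4.70, 4.87 and 11.1 kb in EZH2ΔSET mice. It was over 10 kb in 1 mouse of each genotype and under 5 kb in the other 4. The values over 10 kb were single peaks. Control mouse 3 and EZH2ΔSET mice 1 and 2 had 2 peaks near the gene, and control mouse 2 had 1. K4me3 covered 100% of the Rnase1 transcript in each mouse. Serpini2, a serpin of acinar cells, had widest peaks of 13.1, 3.78 and 12.9 kb in control mice and 12.8, 8.29 and 14.8 kb in EZH2ΔSET mice, and the genotypes overlapped. At Amy1 the peak began downstream of the main start, at another annotated start, so that the window of the main TSS held 1.48, 0.106 and 1.03 kb in control mice and 1.07, 1.09 and 0.927 kb in EZH2ΔSET mice. The genotypes overlapped, and 1.40 to 8.17 kb lay over the transcript in the 6 mice.

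Within 3 kb of the main TSS, the longest means were found at Ctrl, Prss2, Cela3b and Clps. Prss2, the major anionic trypsinogen, filled the window (6.001 kb) in 5 mice and had 4.73 kb in control mouse 2. Ctrl, a chymotrypsin-like protease, had 5.89, 5.39 and 6.001 kb in control mice and 6.001 kb in each EZH2ΔSET mouse. Clps, colipase, which anchors pancreatic lipase at fat droplets, had 5.49, 3.92 and 5.32 kb in control mice and 5.33, 5.38 and 5.25 kb in EZH2ΔSET mice. Where the window is full, a wider peak cannot raise the value. The shortest means among the marked genes were at Amy1, Cela3a, Cuzd1 and Try10. Cuzd1, a zymogen granule membrane protein, had 3.00, 2.84 and 2.99 kb in control mice and 3.04, 3.07 and 3.04 kb in EZH2ΔSET mice. It varied little, and the lowest value was that of control mouse 2. The trypsinogen Try10 had 3.44, 1.92 and 2.86 kb in control mice and 3.87, 3.19 and 3.62 kb in EZH2ΔSET mice. Its lowest value was that of control mouse 2, and the genotypes overlapped.

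The trypsinogen cluster on chromosome 6 held marked and unmarked copies side by side. Try4, Try5, Try10 and Prss2 had K4me3 in 6 mice, and Prss3, Gm5771, Gm10334 and Prss1 in 0. The promoters of Try4 and Prss1 printed above were identical at 178 of 256 aligned positions (69.5%), and both held TATAAA 31 bases before the start. Prss1, with no peak, also held CACCTG 2 times and TGGGAA once. The promoters of Try4 and Prss2, both marked, were 57.9% identical. The share of 32-base words found once in the genome was 84.1% at Try4, 71.4% at Try5, 81.8% at Try10 and 97.7% at Prss2, all above the values of Prss1 and Prss3, and the part of this in the result was not tested.

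Among the marked copies, Try4 had 4.67, 2.69 and 5.08 kb in the TSS window in control mice and 5.11, 4.76 and 5.25 kb in EZH2ΔSET mice. Control mouse 2 was the lowest, and the genotypes overlapped. The difference of EZH2ΔSET from control was 0.90 ± 0.49 kb (SE, n = 3 mice each), with an adjusted p of 0.777 by limma, and without control mouse 2 it was 0.17 ± 0.19 kb (adjusted p 1 by limma).

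A further K4me3 peak stood between Try5 and Try10, in the 6 mice, with a width of 3.04 to 5.73 kb (median 4.83 kb). The stretch common to all mice was chr6:41339625-41342668 (mm10), and it overlapped 0 genes of the annotation used. Beyond Prss2, the T cell receptor beta segments from Trbd2 to Trbc2 span 6.19 kb, beginning 17.1 kb after the end of Prss2. K4me3 covered 4.69 kb of them in control mouse 2, against 1.47 to 2.10 kb in the other 5 mice.

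**Figure D3:**
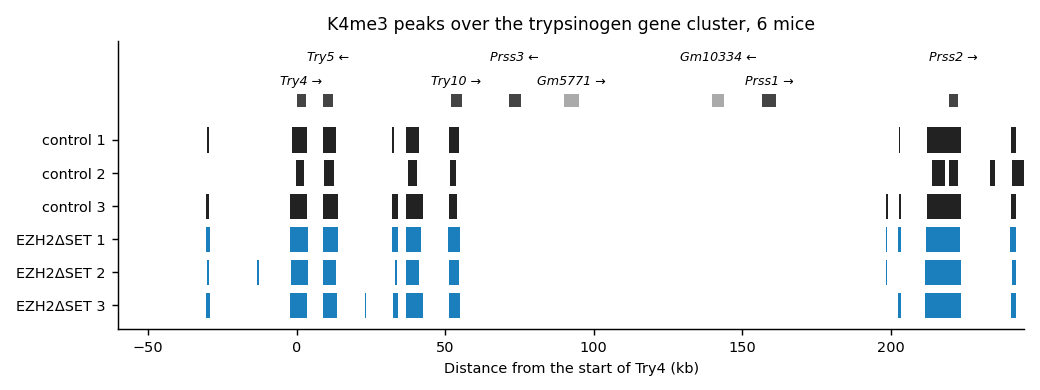
Map of the trypsinogen cluster, with distance in kb from the start of Try4 on the x axis, 1 row of K4me3 peaks per mouse, and the genes drawn above. Peaks stand at Try4, Try5, Try10 and Prss2 and at a place without an annotated gene 36.7 to 42.7 kb from the start of Try4, while Prss3, Gm5771, Gm10334 and Prss1 have none. Smaller peaks stand elsewhere, such as 32.2 to 34.3 kb from that start in every mouse but control mouse 2.

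K27me3 was nearly absent from the digestive enzyme genes in both genotypes. A peak lay within 3 kb of a TSS in 2 of 192 pairs of gene and mouse (1.04%), against 15.01% of the pairs for all genes and 6.47% for genes with K4me3. Both were in control mouse 2, at Ctrb1 (chymotrypsinogen B, 1653 bp) and Sycn (syncollin, a granule membrane protein, 1485 bp). Thus 2 of 32 genes had K27me3 in any mouse, against 33.1% of all genes, and 0 did without control mouse 2, against 21.6% of all genes without it. The K27me3 list of that mouse reached 5472 genes against 2355 to 3462 in the other mice. Over the main transcript, Ctrb1 alone was reached (157 bp, control mouse 2), against 30.9% of all genes. Without that mouse it was 0, against 21.9%.

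In a window that began 100 kb before a TSS and ended 3 kb after it, 4 of the 32 genes had K27me3 in any mouse, against 64.4% of all genes. Cpa1, Ctrb1 and Sycn had it in control mouse 2, and Pla2g1b, a phospholipase A2 of pancreatic juice, in control mouse 2 (64451 bp) and EZH2ΔSET mouse 3 (5001 bp). Without control mouse 2 it was 1 gene, against 44.4%. At 21 genes (65.6%) every K27me3 peak of every mouse was over 100 kb away, against 20.1% of all genes and 24.8% of those with K4me3. The median gene had its nearest K27me3 peak 396 kb away, against 133 kb and 199.7 kb. With this few calls no difference between genotypes in K27me3 could be detected at these genes.

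The wide K4me3 peaks were narrower in the library with T and B cell marks. Relative to each gene's median over the 6 mice, the digestive enzyme genes stood at 69.7% in control mouse 2 and at 100 to 100.7% in the other 5 mice. Over all genes the value was 93.0% in control mouse 2. Control mouse 2 was the lowest of the 6 mice at 27 of the 28 genes, against 54.0% of all genes, and 23 of them were under 80% of their median, against 21.6% of all genes. Over the transcripts it stood at 67.3%, against 89.98% for all genes. The T and B cell markers moved with this result in this library, and their part in it was not tested.

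**Figure D4:**
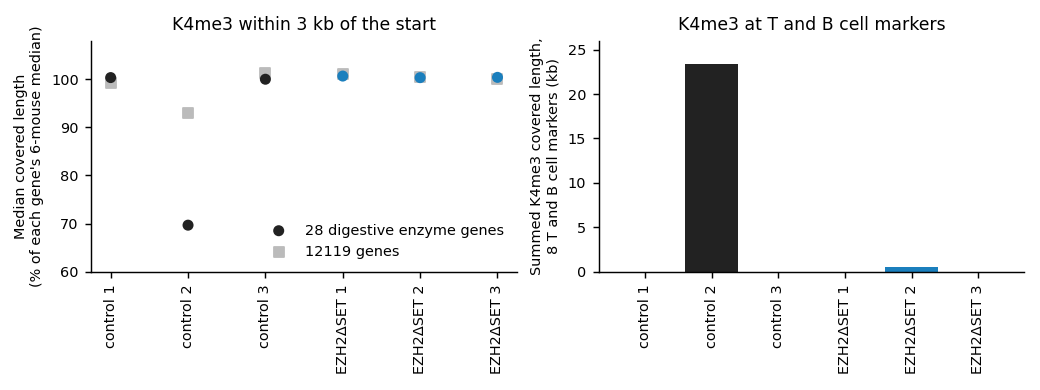
Left, median over the 28 digestive enzyme genes (circles) and over 12119 genes (squares) of the K4me3 covered length within 3 kb of the main TSS, as percent of each gene's median over the 6 mice (y axis), for each mouse (x axis). Right, summed K4me3 covered length in kb at 8 T and B cell markers, with bars for single mice. For the enzyme genes, control mouse 2 stands at 69.7%, where the remaining mice lie at 100 to 100.7%, and the bar of that mouse reaches 23.4 kb.

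The comparison of genotypes asked whether the active mark at these genes differed between EZH2ΔSET and control mice. EZH2ΔSET mice also carried Mist1creERT/+, and the labels do not say which control mice carried it. Where control mice lacked it, its part cannot be told apart from that of the loss of the SET domain. None of the 29 genes that could be tested was called. Covered length in the TSS window was fitted by limma over 13652 genes, with the spread taken over all mice of the study. Dnase1, Prss1 and Prss3 were not tested, having no peak. By limma with Benjamini-Hochberg adjusted p, 0 of the 29 differed in EZH2ΔSET against control (0.0439% of all genes called higher, 0.022% lower), with 1 at an unadjusted p under 0.05. Without control mouse 2 it was again 0 (0.0586% higher, 0.125% lower), with 1 unadjusted, and with the spread taken over these 6 mice alone it was 0 (0% in each direction), with 1 unadjusted. A p that misses the threshold does not show that the values were alike.

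All 29 differences were positive (median 0.42 kb), against 67.7% of all genes (median 0.077 kb). This rested on control mouse 2. Without it, 15 of the 29 were positive, 12 negative and 2 at 0 (median 0.042 kb), against 52.9% of all genes positive (median 0.011 kb). The 2 at 0 were Cela3b and Prss2, which filled the window in each of these mice.

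Counting genes whose groups did not overlap gave small numbers. In the TSS window EZH2ΔSET exceeded control at 4 of 29 (Cpb1, Cuzd1, Spink1 and Sycn), against 8.51% of all genes, and lay below it at 0, against 2.16%. Over the transcript it exceeded control at 3 of 29 (Cela1, Cuzd1 and Try10), against 10.2%, and lay below it at 0, against 2.41%. Without control mouse 2 the genes in which EZH2ΔSET was higher remained 4 in the TSS window (11.8% of all genes) and 3 over the transcript (13.2%), and it lay below control at 4 in the TSS window (Cela1, Cela2a, Cpa1 and Serpini2), against 9.98%, and at 0 over the transcript, against 9.89%. With 3 mice against 3 the exact two-sided permutation p of each gene that did not overlap is 0.1, the smallest that the design allows.

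Spink1, the trypsin inhibitor of zymogen granules, showed the smallest unadjusted p with all mice (0.0188 by limma, fitted across all genes). Its K4me3 covered 3.90, 3.28 and 4.01 kb in control mice and 4.87, 4.40 and 4.75 kb in EZH2ΔSET mice. The EZH2ΔSET mice lay above all control mice, control mouse 2 being the lowest. The separation lay in a second, small peak of 0.793, 0.501 and 0.708 kb, at most 2.82 kb upstream of the TSS, which each EZH2ΔSET mouse had and no control mouse. The main peak alone held 3.90, 3.28 and 4.01 kb of the window in control mice and 4.08, 3.89 and 4.04 kb in EZH2ΔSET mice, which overlap. The difference was 0.94 ± 0.34 kb (SE, n = 3 mice each), with an adjusted p of 0.777 by limma. Without control mouse 2 it was 0.72 ± 0.36 kb (unadjusted p 0.0755, adjusted p 1 by limma), and with peaks of at least 1 kb alone it was 0.28 ± 0.33 kb (unadjusted p 0.426, adjusted p 0.824 by limma). With the spread taken over these 6 mice alone, the unadjusted limma p was 0.00793 (adjusted 0.853), and 0.00204 with the replicate block as well (adjusted 0.822).

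At Cpb1 the window held 4.74, 3.15 and 4.70 kb in control mice and 4.87, 5.06 and 5.02 kb in EZH2ΔSET mice. The genotypes did not overlap, but control mice 1 and 3 stood within 0.2 kb of the lowest EZH2ΔSET mouse. The difference was 0.79 ± 0.36 kb (adjusted p 0.777 by limma) and 0.27 ± 0.16 kb without control mouse 2 (adjusted p 1 by limma). Sycn had 4.27, 2.62 and 4.43 kb in control mice and 4.46, 4.56 and 4.46 kb in EZH2ΔSET mice. Here control mouse 3 lay just below the EZH2ΔSET mice, and the difference of 0.72 ± 0.41 kb (adjusted p 0.777 by limma) was 0.14 ± 0.22 kb without control mouse 2 (adjusted p 1 by limma).

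Cela1, an elastase whose peak runs far into the gene, was not called in either window. Over the transcript K4me3 covered 7.97, 2.17 and 8.01 kb in control mice and 8.68, 9.76 and 9.05 kb in EZH2ΔSET mice. The EZH2ΔSET mice lay above all control mice, whereas in the TSS window the values of 4.05, 2.33 and 4.10 kb in control mice and 3.82, 3.97 and 3.82 kb in EZH2ΔSET mice overlapped. The transcript difference of 3.11 kb was 1.17 kb without control mouse 2. In the gene body with 3 kb upstream the difference was 3.21 ± 2.14 kb (SE), with an adjusted p of 0.709 by limma, and 0.97 kb without control mouse 2. In the TSS window control mice 1 and 3 lay above the EZH2ΔSET mice, and without control mouse 2 the difference was -0.20 ± 0.11 kb (adjusted p 1 by limma).

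The largest difference of the means in the TSS window was at Cela3b, an elastase. It had 6.001, 3.01 and 6.001 kb in control mice and 6.001 kb in each EZH2ΔSET mouse. The one low value was that of control mouse 2, and all other mice filled the window. The difference was 1.00 ± 0.84 kb (SE, adjusted p 0.789 by limma), and it was 0 kb without control mouse 2. Pnliprp1, a relative of pancreatic lipase, showed the same pattern, with 5.31, 2.95 and 5.30 kb in control mice and 5.32, 5.11 and 5.27 kb in EZH2ΔSET mice. The genotypes overlapped, and the difference of 0.72 ± 0.60 kb (adjusted p 0.785 by limma) turned to -0.067 ± 0.40 kb without control mouse 2.

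Cela3a, an elastase that cuts after alanine, had the largest spread between mice in the TSS window, with an SD of 1.75 kb over the 6 mice. Within 3 kb of its TSS, K4me3 covered 4.10, 0 and 2.28 kb in control mice and 2.08, 4.21 and 0.501 kb in EZH2ΔSET mice. Each genotype thus held high and low mice, and control mouse 2 had no peak. The value of EZH2ΔSET mouse 3 was the shortest peak that the caller reports, about 2 kb upstream of the start. Over the transcript, 2 of 3 control mice had K4me3 (3.78 and 2.00 kb) and 2 of 3 EZH2ΔSET mice (1.48 and 3.81 kb). The difference in the window was 0.14 ± 1.02 kb (SE, adjusted p 0.982 by limma), and without control mouse 2 it was -0.93 ± 0.91 kb (adjusted p 1 by limma).

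Its neighbour Cela3b kept its peak in all mice, with 9.54, 6.31 and 9.41 kb over the transcript in control mice and 9.17, 9.54 and 8.63 kb in EZH2ΔSET mice, and the genotypes overlapped. The promoters of the pair were identical at 220 of 263 aligned positions (83.7%), and the share of unique 32-base words was 61.4% around Cela3a and 60.5% around Cela3b. Reads that fit either copy may have been assigned to the other, and the part of this in the result was not tested.

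**Figure D5:**
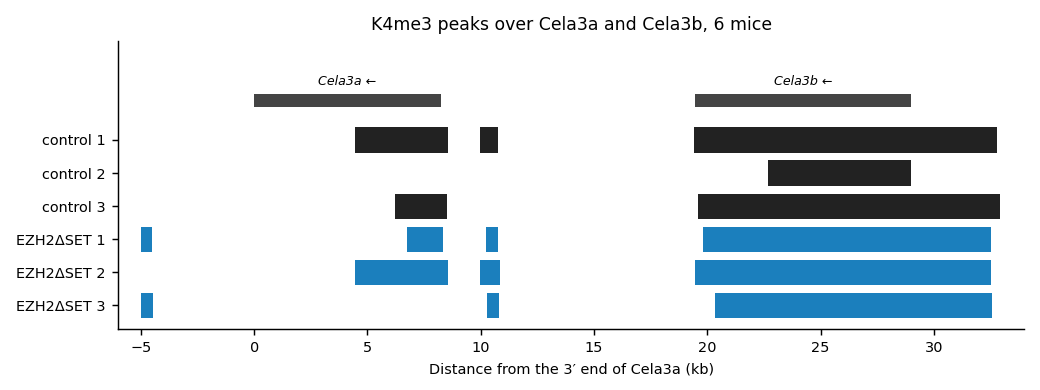
K4me3 peaks over Cela3a and Cela3b, with distance in kb from the 3′ end of Cela3a on the x axis, arrows for the direction of the genes and 1 row per mouse. The peak at Cela3b is present in all 6 mice, and K4me3 over the Cela3a transcript is seen in 2 of 3 mice of each genotype.

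Cela2a, a further pancreatic elastase, changed direction with 1 library. Its window held 6.001, 2.53 and 6.001 kb in control mice and 5.21, 5.13 and 5.43 kb in EZH2ΔSET mice. Control mice 1 and 3 filled the window and stood above all EZH2ΔSET mice, and control mouse 2 stood below them. With every mouse the difference was 0.42 ± 0.75 kb (SE, adjusted p 0.884 by limma), and without control mouse 2 it was -0.74 ± 0.17 kb (unadjusted p 0.00195, the smallest of the 29 in that fit, and adjusted p 0.350 by limma). In that fit both remaining control mice stood at the limit of the window and added no spread to the SE. The SE and p therefore do not measure how control mice differ. Over the transcript the ranges overlapped, with 7.97, 1.91 and 7.00 kb in control mice and 6.78, 8.50 and 8.50 kb in EZH2ΔSET mice.

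Other acinar genes served as the surroundings of these values. Of 11 transcription factor genes of the acinar lineage, 11 had K4me3 in all mice, with a median of 5.38 kb in the TSS window, and 5 had K27me3 within 3 kb of a TSS in any mouse, namely Gata4, Ptf1a, Rbpjl, Nr5a2 and Gata6, all in control mouse 2 alone. The count of 5 (45.5%) stood beside 33.1% of all genes, and without control mouse 2 it was 0, beside 21.6%. Of 24 other genes listed for acinar cells, Cftr and Muc1 also stand in the duct list above. Of the 24, 21 had K4me3 in all mice, and the exceptions were Sct, Sctr and Cftr in 5 mice each. The median over all 24 was 3.89 kb in the TSS window. For both lists this is the median of each gene's median over the 6 mice, while the 4.07 kb of the digestive enzyme genes rests on means over the mice. K27me3 in any mouse was found at 6 of the 24, at 5 of them in control mouse 2 alone, and without that mouse at 1 (4.17%), Cftr in EZH2ΔSET mouse 1 (107 bp). In control mouse 2 the transcription factor genes stood at 78.5% and the other acinar genes at 76.3% of their medians, beside 69.7% for the digestive enzyme genes. Over the transcript the order was the opposite, with 54.8%, 63.6% and 67.3%. The targeted gene Ezh2 had 2.89 to 3.22 kb of K4me3 in its TSS window in the 6 mice, and peak positions do not show the allele.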

How the data were processed

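ChIP-Seq for K4me3 and K27me3 was performed by the authors on whole pancreas of 6 mice reported here. Reads were aligned with Bowtie2 (mm10), and HOMER (findPeaks, histone style, input as background) was run on each library separately by the authors, with versions not given in the sources used here. The deposited files reported are 12 peak lists with positions. Their score column, as deposited, is 1 for every peak and was not used, and the inputs were not analysed here. Depth is unknown, so no counting error could be given. Peak number and width may depend on depth, so covered length is no measure of signal.

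Peaks were intersected with GENCODE vM21 (GRCm38, the build of the lists). A gene was called when a peak overlapped 3 kb on either side of any annotated TSS, and covered length was taken around the main TSS and over the main transcript. Genes with a peak around the main TSS in at least 3 of 12 mice were fitted with limma 3.58.1 in R 4.3.3 with a term for each genotype. The 6 mice of the study's remaining genotypes entered this filter and the estimate of the spread, and are otherwise not reported here. A Benjamini-Hochberg adjusted p under 0.05 was called. The script was tested on simulated data. Single genes were also tested by exact two-sided permutation (20 arrangements, smallest p 0.1). Samples were grouped by the labelled genotype. Mice are labelled as biological replicates, and replicate numbers were taken as names only. Promoters and genome words came from RefSeq on GRCm38.p6. Values by mouse are given for the genes with the 4 longest and the 4 shortest mean covered lengths over the 6 mice and the largest difference, and Cpb1, Rnase1, Serpini2, Spink1, Sycn, Pnliprp1, Try4, Cela1, Cela2a and the clusters were added after their values were seen. The 32 genes, the marker lists and the tests were chosen with earlier results of these data known. The alternatives were other windows, scaling, a log2 scale, leaving out mice and a replicate block, and a fit of the 6 mice alone, counts of groups that do not overlap and K27me3 shares of all genes without control mouse 2 and a scaled gene body window were chosen after seeing the data.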

Additional observations from a re-analysis of the deposited data

How the results depend on the processing

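Among the digestive enzyme genes, the count with K4me3 in all mice was 21 to 29 under every alternative (21 of 22 without genes of near-identical families) and 28 to 29 with each mouse left out. The count with K27me3 in any mouse was 1 over the gene body, 4 from 100 kb upstream, 0 for peaks of at least 10 kb, and 0 to 2 with each mouse left out, 0 without control mouse 2. By limma, 0 enzyme genes were called under every window, filter, scaling, width, replicate block and left-out mouse tried, and in the fit of the 6 mice alone. The 9 calls over all genes became 3 in a 1 kb window or with a peak required in all 12 mice of the fit, 5 on the log2 scale, 15 with equal numbers of peaks, 4 with the replicate block, 4 to 25 with each mouse left out (25 without control mouse 2) and 0 in the fit of the 6 mice alone, where 540 genes had an unadjusted p under 0.05.

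The median difference of EZH2ΔSET from control was 0.98 kb over the gene body plus 3 kb upstream (0.042 kb without control mouse 2) and 0.245 kb in a 1 kb window, and in the TSS window 0.042 to 0.72 kb with each mouse left out. Cela2a, at 0.42 kb, reversed to -0.024 kb in a 1 kb window, was 2.08 kb over all annotated TSSs (-0.30 kb without control mouse 2) and 2.35 kb over the gene body plus 3 kb upstream (likewise -0.30 kb), and in the TSS window ranged from -0.74 to 1.00 kb with each mouse left out. The cause was not tested. An unadjusted p of 0.1 or less was reached at 4 genes of 29 by the exact test, against 10.7% of all genes, and at 6 by limma, against 12.3%.

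Replicate numbers did not meet the rule for pairs (same-numbered deviations correlated from 0.083 to 0.213, 2 of 3 over 0.1), though 5 of 6 mice correlated best with their own number. The replicate block cannot change a difference in this balanced design (median 0.42 kb), and with it 0 enzyme genes were called. Unknown depth, whole tissue and 3 mice in each genotype limit all of these values.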
